A study of Mus musculus with 2 samples.

Results

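Hepatocyte identity is set by a small group of transcription factors, and 8 of their genes are described here by the E2F1 peaks listed at them. The genes are Hnf4a, Foxa1, Foxa2, Foxa3, Cebpa, Cebpb, Onecut1 and Prox1. They were chosen by name, and every entry of the deposited peak list whose gene symbol was 1 of these names was taken. That gave 11 peaks at 7 genes, out of 5667 peaks named for 5587 gene symbols. Foxa1 had no entry.

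The peaks come from chromatin immunoprecipitation followed by sequencing (ChIP-seq), which enriches DNA bound by a protein by means of an antibody against it. The cells were primary hepatocytes of the C57Bl6J mouse strain, infected with the adenovirus Ad-E2F1 and collected 36 h later. Chromatin pulled down with the E2F1 antibody c20 was set against input chromatin, which was not pulled down, with 1 record of each. Both records are labelled as infected with this vector, and no cells without it were analysed here. The level of E2F1 and the share of infected cells cannot be read from a peak list. The series text speaks of 2 replicates that each combine 2 ChIPs, but the list is not split by replicate. No value below therefore has a replicate error, and no test between samples was possible. Sequencing depth is unknown, because no source used here states the read totals. A peak list measures no RNA, so the labelled cell type could not be checked against its marker genes.

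Hepatocyte nuclear factor 4 alpha, made from Hnf4a, is a nuclear receptor that binds at many genes active in hepatocytes and is needed for their differentiation. The FOXA proteins open chromatin at liver genes ahead of other factors, the C/EBP proteins are leucine zipper factors of liver metabolism and the acute phase, and ONECUT1 and PROX1 are homeodomain factors of liver development. These factors bind to each other's genes and so hold the hepatocyte state. E2F1 is known for its place on the other side of the cell's choices, at promoters of genes for S phase entry. Whether and where the E2F1 of these cells is found at genes of cell identity is the question that the list can be asked.

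A peak is called a promoter peak where at most 1000 bp separate its summit and a transcription start site (TSS). Of the 8 factor genes, 3 had a promoter peak (37.5%), namely Cebpa, Foxa2 and Foxa3, against 13.1% of the 21900 protein-coding genes. Another 4 genes, Hnf4a, Cebpb, Onecut1 and Prox1, had listed peaks only away from the promoter. So did 2540 of the 5406 protein-coding genes with any listed peak (47.0%). In all, 7 of the 8 had a listed peak (87.5%), against 24.7% of protein-coding genes. The genes were chosen when these peaks were already known, so the counts are a description. By peak, 3 of 11 were promoter peaks (27.3%), against 46.1% of all 5667 peaks.

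**Figure D1:**
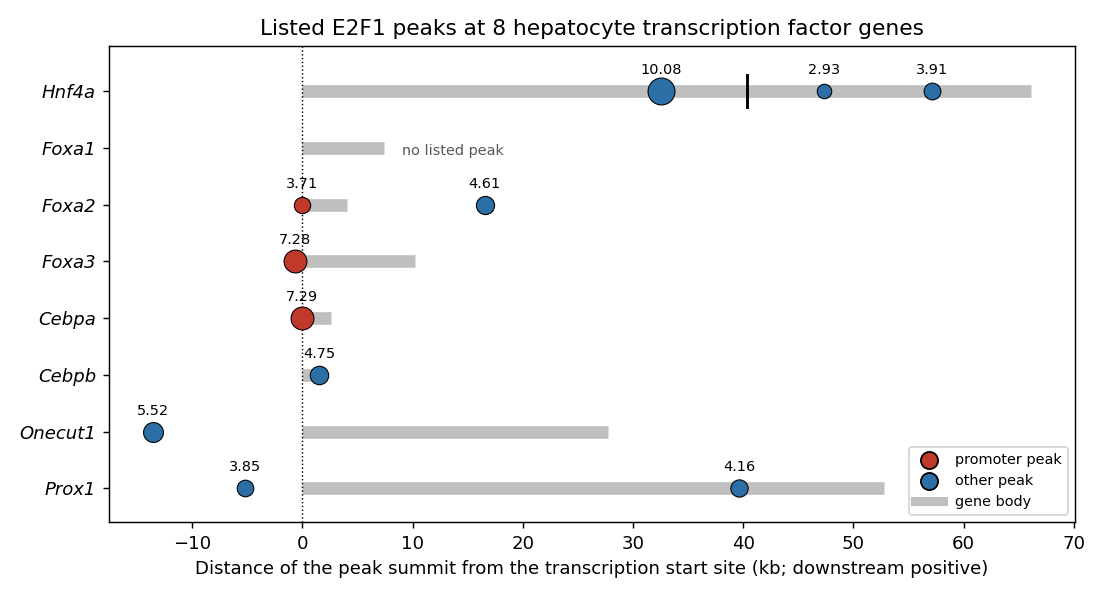
Positions of the 11 listed peaks at the 8 genes. The horizontal axis gives the distance of each summit from the authors' TSS in kb, with downstream positive. Point area is proportional to the authors' fold, printed above each point, and grey bars are gene lengths from RefSeq. The black tick marks the second RefSeq start of Hnf4a. A window that holds the TSS is drawn at 0, and the 2 peaks past a gene's end (Foxa2 and Cebpb) are drawn from that end. The 3 promoter peaks are at Foxa2, Foxa3 and Cebpa, and the largest fold, 10.08, lies inside Hnf4a.

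Cebpa codes for C/EBP alpha, which drives metabolic genes of the mature hepatocyte and holds back cell division. Its peak is the clearest promoter peak of the group. The 301 bp window around the summit, on chr7:35904149-35904449 (mm9), held the TSS itself. The authors' fold, which divides ChIP tags by a background expected from the input, was 7.29 with 95 tags. The score, the caller's p-value as negative log10 times 10, was 183.96, the highest of the 11 peaks, and the false discovery rate was 0.6%. The called region was short, at 1164 bp. Among the 2612 promoter peaks of the list, 58.8% had a lower fold and 58.3% a lower score, so the Cebpa peak stood slightly above the middle of its class.

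The gene next to Cebpa that also had a peak is its relative Cebpg, which codes for C/EBP gamma, a partner of other C/EBP proteins in dimers. The Cebpg promoter peak lay 62598 bp away, with a fold of 6.03, 207 tags and a score of 137.34. The peak caller numbered its calls along each chromosome, and these 2 peaks carried consecutive numbers, so no further call was made between them.

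Foxa3 codes for the FOXA family member that is kept high in the adult liver. Its single peak, on chr7:19609442-19609742 (mm9), began 554 bp upstream of the TSS and had a fold of 7.28, 109 tags, a score of 105.21 and a false discovery rate of 1.25%. The fold was practically that of the Cebpa peak, while the score was lower. The same window held the TSS of Sympk, a scaffold protein of mRNA 3' end formation, to which the authors marked the peak as closest. Foxa3 therefore shared its promoter peak and would have none if each peak were given to its closest gene. At Irf2bp1, a transcriptional corepressor gene 20342 bp away by summits, a far stronger promoter peak held 335 tags and had a fold of 28.73.

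Foxa2 codes for a FOXA protein of endoderm and liver formation. It was the only 1 of the 8 genes with both a promoter peak and another peak. The promoter peak, on chr2:147872409-147872709 (mm9), held the TSS but was weak, with a fold of 3.71, 90 tags, a score of 70.58 and a false discovery rate of 4.2%. Only 6.6% of the promoter peaks of the list had a lower fold.

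The other Foxa2 peak was stronger. It lay 12312 bp past the 3' end of the gene on chr2:147856000-147856300, with a fold of 4.61, 322 tags, a score of 102.97 and a false discovery rate of 1.36%. Its called region spanned 3365 bp against 1348 bp at the promoter. The summits were 16409 bp apart and the caller's numbers were consecutive. At Foxa2 the peak outside the promoter thus had the higher fold, score and tag count.

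The sequences before the starts of the genes with promoter peaks are shown because E2F proteins are known for a short GC-rich site. They are the 250 bases before each start in RefSeq, assembly GRCm38.p6, to which all 8 gene symbols matched, with 12 starts in all. The assembly differs from that of the peaks (mm9), and no coordinates were carried between them. Capitals mark 2 kinds of match, searched on both strands. The first is the E2F site in 4 spellings of 7 letters. These were TTCCCGC, secondly TTCGCGC, further TTGCCGC, and lastly TTGGCGC. Each was also searched with a T before it, as a spelling of 8 letters. The second is the TATA box, TATAAA, which positions the transcription machinery at some promoters. The Cebpa stretch is chr7:35119043-35119292 on the plus strand, and the Foxa3 stretch chr7:19023540-19023789 on the minus strand. The Foxa2 stretches are on the minus strand at chr2:148046970-148047219 for the most upstream start and chr2:148045949-148046198 for a start 1021 bp further down. That of the most downstream start, 1505 bp below the first, is chr2:148045465-148045714.
Cebpa: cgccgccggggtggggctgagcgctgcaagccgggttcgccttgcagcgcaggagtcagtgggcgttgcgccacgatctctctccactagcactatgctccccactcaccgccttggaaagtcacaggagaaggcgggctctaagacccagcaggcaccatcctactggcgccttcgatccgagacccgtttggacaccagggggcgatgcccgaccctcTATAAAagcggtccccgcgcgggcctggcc
Foxa3: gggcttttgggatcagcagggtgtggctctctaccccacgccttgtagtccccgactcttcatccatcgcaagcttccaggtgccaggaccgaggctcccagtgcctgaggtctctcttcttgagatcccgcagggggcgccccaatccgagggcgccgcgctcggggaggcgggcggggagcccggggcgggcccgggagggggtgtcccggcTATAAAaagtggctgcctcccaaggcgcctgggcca
Foxa2, most upstream start: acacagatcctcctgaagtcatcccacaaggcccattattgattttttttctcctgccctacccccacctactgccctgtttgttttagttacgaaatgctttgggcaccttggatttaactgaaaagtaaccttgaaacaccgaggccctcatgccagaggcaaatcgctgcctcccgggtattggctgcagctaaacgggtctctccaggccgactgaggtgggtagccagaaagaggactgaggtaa
Foxa2, start 1021 bp downstream: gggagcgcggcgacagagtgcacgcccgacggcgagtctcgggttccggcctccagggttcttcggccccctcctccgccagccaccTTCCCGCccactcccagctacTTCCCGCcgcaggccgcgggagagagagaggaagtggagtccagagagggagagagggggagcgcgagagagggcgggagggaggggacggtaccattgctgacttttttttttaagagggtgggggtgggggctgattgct
Foxa2, start 1505 bp downstream: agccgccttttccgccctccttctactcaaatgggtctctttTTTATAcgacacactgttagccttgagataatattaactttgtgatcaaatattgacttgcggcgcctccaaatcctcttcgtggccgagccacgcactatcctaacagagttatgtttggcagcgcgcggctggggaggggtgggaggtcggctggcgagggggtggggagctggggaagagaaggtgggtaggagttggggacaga

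Cebpa and Foxa3 both held a TATA box in the forward direction, 30 bases before the start at Cebpa and 36 bases before it at Foxa3, and neither held an E2F spelling of 7 or 8 letters. The middle start of Foxa2 held TTCCCGC at positions 163 and 142 before the start, the first of which overlaps a GC box (GGGCGG, read as CCGCCC on this strand). The authors' distance for the peak past the end of Foxa2 places that end. Counted from there, the RefSeq gene length of 4093 bp puts the most upstream start inside the promoter window. On that reading the starts 1021 and 1505 bp further down lie outside the called region, and so do both TTCCCGC sites.

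Over the 12 starts of the 8 genes, 0 held an 8-letter E2F spelling, against 6.84% of 2893 starts of genes with a promoter peak and 1.86% of all 32851 starts. The 7-letter spellings were at 2 starts, those of Foxa2 and Cebpb, against 22.2% of starts of genes with a promoter peak and 7.89% of all starts. A TATA box was at 4 starts of 4 genes, against 5.7% of the starts of promoter peak genes and 12.4% of all starts. At Prox1 and at the most downstream start of Foxa2 it was read on the reverse strand, 34 and 208 bases before the start. GC boxes stood at 9 of the 12 starts, against 63.1% and 32.7%. CCAAT boxes (CCAAT) stood at 5, against 43.6% and 33.8%. These windows hold letters and not binding, and E2F1 sites outside them were not searched.

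The rest of the peaks lie away from promoters, and the strongest is at Hnf4a. The gene had 3 listed peaks, all inside the gene body and far from the authors' TSS. The first, on chr2:163364918-163365218 (mm9), had a window edge 32374 bp from that TSS and a fold of 10.08, with 359 tags, a pileup height of 140, a score of 161.12 and a false discovery rate of 0.64%. Its fold, tag count and height were the highest of all 11 peaks.

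This peak also stood high in its own class by fold. By score it stood above 87.1% of the 3055 peaks outside promoters, close to the 86.2% of the Onecut1 peak. Of the 2227 peaks inside genes and away from a promoter, 76 had a fold as high or higher (3.41%). Of the 1447 peaks more than 20000 bp inside a gene, 30 did (2.07%), and the median fold there was 3.81. The called region, at 3921 bp, was longer than 98.9% of all regions. The longest listed region was 3999 bp, and whether longer calls were left out is not stated.

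The other Hnf4a peaks were weaker. The second, on chr2:163379754-163380054, lay 47210 bp inside the gene with a fold of 2.93, 182 tags, a score of 69.98 and a false discovery rate of 4.34%. The last, on chr2:163389540-163389840, lay 56996 bp inside it with a fold of 3.91, 142 tags, a score of 141.17 and a false discovery rate of 0.63%. The fold of the second was the lowest of the 11 peaks, and only 4.0% of all listed peaks had a lower one. Score and fold did not rank the peaks alike, since the last peak came close to the first by score, with far lower fold and tag count.

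Summits of the 3 Hnf4a peaks were 14836 and 9786 bp apart, and the caller's numbers were consecutive, so no call was left out between them. Across the list, 194 of the 5406 protein-coding genes with any peak had 3 or more (3.59%), and 107 (1.98%) had 3 or more with none at the promoter, as at Hnf4a. Hnf4a has 2 promoters: the downstream promoter, P1, is the main one in adult liver, and the upstream one, P2, is known from fetal liver and pancreas. RefSeq starts of the gene on GRCm38.p6 were 40298 bp apart. In RefSeq the gene is 66097 bp long, so a peak 56996 bp inside it can be counted only from the upstream start. With that start as the authors' TSS, the strongest peak had its summit 7774 bp upstream of the downstream start. The other summits lay 7062 and 16848 bp past the downstream start. On that reading none of the 3 was within 1000 bp of either start.

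The 250 bases before both Hnf4a starts are shown beside those of the genes with a promoter peak. They lie at chr2:163506607-163506856 for the upstream start and chr2:163546905-163547154 for the downstream one (GRCm38.p6, plus strand). Neither holds a letter in capitals, that is, an E2F spelling or a TATA box. Cebpa and Foxa3 also held no E2F spelling.
Hnf4a, upstream start: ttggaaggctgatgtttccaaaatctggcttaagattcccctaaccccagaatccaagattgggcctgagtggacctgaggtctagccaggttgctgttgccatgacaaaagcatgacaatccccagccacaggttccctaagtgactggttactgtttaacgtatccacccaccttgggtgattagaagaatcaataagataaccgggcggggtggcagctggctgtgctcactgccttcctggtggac
Hnf4a, downstream start: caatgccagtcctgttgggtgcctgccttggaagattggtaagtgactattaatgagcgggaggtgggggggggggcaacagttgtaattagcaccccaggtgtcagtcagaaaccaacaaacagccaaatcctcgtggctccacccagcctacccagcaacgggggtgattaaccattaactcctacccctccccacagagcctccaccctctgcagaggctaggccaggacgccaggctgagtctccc

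Both Hnf4a stretches were also poor in CpG dinucleotides. The count of CG relative to that from the base composition was 0.18 before the upstream Hnf4a start and 0.19 before the downstream one. It was 0.8 at Cebpa, 0.61 at Foxa3 and 0.38 to 0.73 over the Foxa2 starts, with medians of 0.79 over genes with a promoter peak and 0.37 over all starts. Onecut1, Cebpb and Foxa1 had ratios of 0.97, 0.99 and 0.89 and no promoter peak. A relation between CpG content and promoter peaks was not tested.

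Prox1 codes for a homeodomain protein that marks hepatoblasts and hepatocytes and also lymphatic endothelium. It had an intragenic and an upstream peak. The intragenic peak, on chr1:191954778-191955078 (mm9), lay 39481 bp from the TSS with a fold of 4.16, 203 tags, a score of 122.56 and a false discovery rate of 0.89%. The upstream peak, on chr1:191999627-191999927, ended 5067 bp from the TSS with a fold of 3.85, 157 tags and a score of 56.33. Its false discovery rate of 6.93% was the highest of the 11, so the intragenic peak was the better supported. Hnf4a and Prox1 were the 2 members with an intragenic peak outside the promoter (2 of 8), against 8.06% of protein-coding genes. They are also the longest of the 8 genes in RefSeq, at 66097 and 52793 bp, and gene length was not accounted for.

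Onecut1 codes for hepatocyte nuclear factor 6, which acts upstream of Hnf4a and Foxa2 in the developing liver. Its peak lay 13440 bp upstream of the TSS on chr9:74695987-74696287 (mm9), with a fold of 5.52, 145 tags, a score of 154.82 and a false discovery rate of 0.6%. Of the 3055 peaks outside promoters, 78.7% had a lower fold and 86.2% a lower score. It ranked second to the first Hnf4a peak by fold among the peaks of these genes outside promoters.

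Cebpb codes for C/EBP beta, a factor of the acute phase response and of liver regeneration. Its peak, on chr2:167515652-167515952 (mm9), held the 3' end of the gene, with a fold of 4.75, 196 tags, a score of 63.71 and a false discovery rate of 5.42%. Cebpb is short, 1518 bp in RefSeq. With that length the summit lay 1367 to 1667 bp past the TSS, and the called region of 2732 bp began 18 to 318 bp past it. The region thus covered nearly the whole gene while its summit missed the promoter definition. The stretch before the Cebpb start, chr2:167688665-167688914 (GRCm38.p6, plus strand), is shown because it is the only 1 besides that of Foxa2 with an E2F spelling, GCGGGAA as read on this strand, 200 bases before the start.
Cebpb: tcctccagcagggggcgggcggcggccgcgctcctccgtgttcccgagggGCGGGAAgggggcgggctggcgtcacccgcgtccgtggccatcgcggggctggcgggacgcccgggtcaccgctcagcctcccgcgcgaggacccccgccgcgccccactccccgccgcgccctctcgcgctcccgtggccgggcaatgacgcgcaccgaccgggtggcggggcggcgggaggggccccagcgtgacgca

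Foxa1, which codes for the FOXA protein that acts beside FOXA2 in the early liver, had no listed peak. In RefSeq the gene lies between Mipol1 and Ttc6. The nearest listed peaks on either side were in Slc25a21, with a fold of 3.77, and in Ttc6, with a fold of 3.5 and 88089 bp from the Ttc6 start. Between these windows lay 518052 bp with 0 listed peaks and 1 number of the caller that is not in the list. The position of that call is unknown, and Foxa1 could be bound without being listed.

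**Figure D2:**
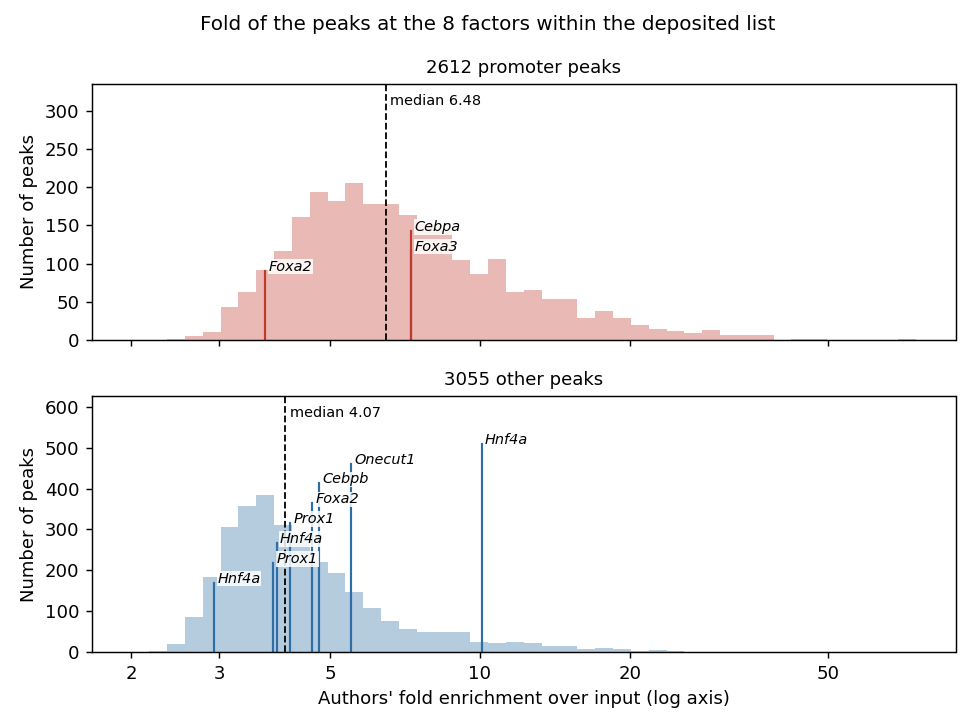
Fold of the 11 peaks within the deposited list. Each panel is a histogram of the authors' fold over input on a log axis, for the 2612 promoter peaks (top) and the 3055 other peaks (bottom). Solid lines mark peaks at the factor genes, with heights set only to separate the names, and dashed lines mark medians of 6.48 and 4.07. Cebpa and Foxa3 lie slightly right of the promoter median and Foxa2 left of it, while the first Hnf4a peak, at 10.08, lies in the upper tail of the other peaks.

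Promoter and other peaks of the 8 genes overlapped in strength. The 3 promoter peaks had folds of 3.71, 7.28 and 7.29, with a median of 7.28. The 8 other peaks ran from 2.93 to 10.08 with a median of 4.385. In the whole list the medians were 6.48 for promoter peaks and 4.07 for the others.

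For tags and score the order in this group was the opposite of that in the list. The promoter peaks of the factors held a median of 95 tags, the other peaks a median of 189, whereas the list had 169 at promoters and 136 elsewhere. Scores had medians of 105.21 at the promoters of the factors and 112.765 at their other peaks, against 148.485 and 74.91 in the list. Called regions were 1348 bp at promoters and 3027.5 bp elsewhere by median, against 1897.5 bp and 1942 bp in the list, which is the same order with a wider gap. Pileup height also kept the list's order, with medians of 50 at promoters of the factors and 45.5 at their other peaks, against 60 and 37 in the list. With 3 and 8 peaks these are descriptions, and peaks are not replicates.

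**Figure D3:**
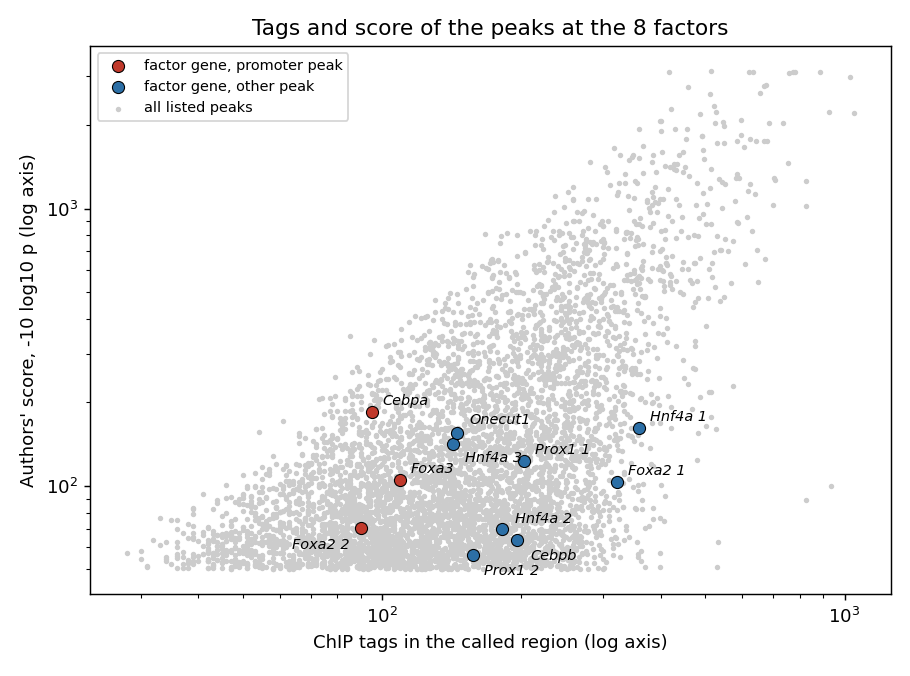
Tags in the called region (horizontal, log axis) and the authors' score (vertical, log axis), for the 11 peaks and for all 5667 listed peaks. Where a gene has several peaks they are numbered by position on the chromosome, so Foxa2 1 is the peak past the gene's end and Foxa2 2 the promoter peak. The 3 promoter peaks hold 90 to 109 tags, fewer than any of the other 8, which hold 142 to 359. In the whole list promoter peaks have the higher median, 169 against 136. The highest score, 183.96, is that of Cebpa.

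Tag counts of the 2 kinds of peak did not overlap in this small group. The promoter peaks held 90, 95 and 109 tags and the other peaks 142 to 359. Of all listed peaks, 30.4% held fewer than 109 tags and 46.3% fewer than 142. Across the list promoter peaks had the higher median, 169 against 136. Regions of the factors' peaks also differed in length. Their tags per kb of region did overlap, with medians of 66.8 at promoters and 71.4 elsewhere, against 81.1 and 66.6 in the list. False discovery rates of the 11 peaks ran from 0.6% to 6.93%. Of the 11 peaks, 5 were at or under 1% (45.5%), against 39.8% of all peaks. These were the peak of Cebpa, the first and last of Hnf4a, that of Onecut1 and the intragenic peak of Prox1.

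The genes next above and next below each factor by fold, within the authors' position class, place these values in the list. Each gene was entered only by its strongest peak, in the authors' class of that peak. The strongest peak of Hnf4a stood between those of Srcin1 (10.17) and Tssk6 (10.04) in the authors' intragenic class. That of Prox1 stood between those of Atp2b4 (4.17) and Arid5b (4.15). At promoters, Cebpa had 2310039H08Rik above it (7.3) and Ctdsp1 below it (7.28), and Foxa3 had Cebpa above it and Arid1a below it (7.27). Among upstream peaks, Onecut1 stood between Dis3l2 (5.56) and Chd8 (5.49). Past gene ends, Foxa2 stood between Rpl5 (4.62) and Rpl21-ps14 (4.6), and Cebpb between Abt1 (4.77) and Neto2 (4.73). Other genes had the same fold as a factor to the last printed digit. These were Fbxl19, Impa1, Rpp30 and Ube3c with Cebpa, and Ctdsp1, Slc25a42 and Taok2, besides Sympk at the same peak, with Foxa3. They were Kcnq5, Mtch2, Ncoa1 and Pak1ip1 with Prox1, Nmt1 with Onecut1, and Eif4b and Zfp709 with Cebpb.

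Peaks were also listed at other liver transcription factors. Of 28 such genes, 5 had a promoter peak (17.9%) and 13 any listed peak (46.4%), against 13.1% and 24.7% of protein-coding genes. Dbp, a leucine zipper factor at the output of the circadian clock, had a fold of 7.12 and Zhx2, a repressor of fetal liver genes, 6.97. Tbx3, which acts in hepatoblast growth, had 5.0, Nr0b2, the receptor SHP that damps bile acid synthesis, 4.98, and Tcf7l2, an effector of Wnt signalling, 4.14. The other 8 with a peak had it away from the promoter, among them Nr2f2 at 11.74 and Rxra at 7.81, both inside the gene. Ppara and Hhex were among the 15 with no listed peak.

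In the C/EBP list, 3 of 7 genes had a promoter peak. Cebpa and Cebpg are given above, and Cebpz, a nucleolar protein named for CCAAT binding, had a fold of 4.4 at a promoter shared with 2410091C18Rik. Cebpd, Cebpe and Ddit3 had no listed peak. Of 26 forkhead genes outside the FOXA group, 4 had a promoter peak (15.4%) and 12 any peak (46.2%). Over all protein-coding genes these shares were 13.1% and 24.7%. Foxn2 had a fold of 9.48, Foxk1 8.01, the insulin-regulated factor Foxo1 7.84 and Foxp4 6.1. Foxd1 was not counted, because its window edge lay 1011 bp from the TSS, although the authors class that peak as a promoter peak. Of 6 other genes of the Cut and Prospero groups, 0 had a promoter peak and 2 had another peak. The relative of Onecut1, Onecut3, carried 1 with a fold of 7.44 at 19276 bp upstream, and Onecut2 had none. Hnf4g, the paralog of Hnf4a, also had none.

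Of 25 transcription factors of other lineages, 1 had a promoter peak (4.0%), Mitf of the pigment cell lineage with a fold of 4.83, and 4 had any peak (16.0%). The eye and pancreas factor Pax6 had an intragenic peak with a fold of 15.11, above every peak of the 8 hepatocyte factors. Of 20 markers of other liver cells, 0 had a promoter peak and 1 had another peak, the stellate cell factor Lhx2, with a fold of 11.36 inside the gene. Of 15 hepatocyte genes known as targets of these factors, 0 had a promoter peak. Apoa1 and G6pc had folds of 3.6 and 4.47 at peaks 5298 and 5234 bp upstream, and Alb, Ttr and Apob were among the 13 with no listed peak. Of all protein-coding genes, 13.1% had a promoter peak and 24.7% any listed peak. The differences between these lists were not tested.

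**Figure D4:**
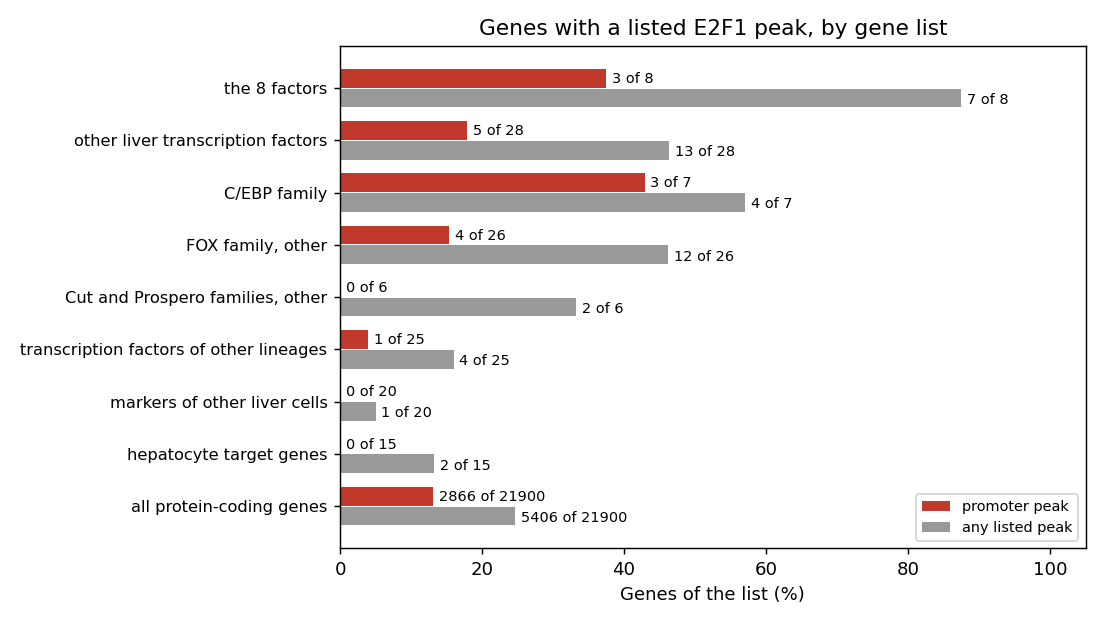
Share of genes (horizontal, %) with a promoter peak (red) and with any listed peak (grey), for the 8 factors, the other gene lists and all protein-coding genes, with counts beside the bars. Cebpa and Cebpb stand both among the 8 factors and in the C/EBP list, and a list of 1 gene, Hnf4g, is not drawn. The 8 factors have 3 and 7 genes with such peaks, against 13.1% and 24.7% of protein-coding genes.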

How the data were processed

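The deposited list of E2F1 peaks in primary mouse hepatocytes (1 ChIP record against 1 input record) was used as it stands. Reads were aligned with Bowtie2 (2.1.0) to mm9, per the submitters' processing notes, and peaks called with MACS, per the file headers. No source used here states the MACS settings, whether replicates were pooled, or the rules for listing a peak. The authors deposited for each peak a whole-number count of tags, the height of the pileup signal, the fold (a ratio to the expected background), a score of 10 times the negative log10 p-value, and a false discovery rate in percent. A further column of values, labelled FERR in the deposited file, is unexplained and was not used. The lowest score was 50, the highest false discovery rate 8.57%, and 13240 of the caller's numbers from 2 to 18908 are not listed.

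Each window is 301 bp around the summit, and a promoter peak has a window edge within 850 bp of a TSS. On entries past a gene's end the authors' distance was taken to the gene end, so these were never promoter peaks. Genes are the authors' assignment. Of 5587 symbols, 5493 matched RefSeq names (GRCm38.p6). Values were computed with Python (3.11.15) and pandas (2.3.3), and the classifier and motif search were tested on simulated data. Percentages of peaks with a lower value are ranks within the list.

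The 8 genes, the 8 further gene lists and the comparisons were chosen with earlier results of these data known. Named were all members, list genes with a promoter peak, and the genes next above and below each member in fold within the authors' class; others were named after their values were seen. Counts and medians were recomputed with other promoter widths, the authors' promoter class, stricter peak thresholds and closest genes only. Some genes of these lists are not reported here.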

Additional observations from a re-analysis of the deposited data

How the results depend on the processing

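No paired analysis was possible because ChIP and input have 1 record each and the list is not split by replicate, so no replicate could be left out either. Of 56 values recomputed under 8 alternatives, 36 kept their size (counts within 1.5 times, medians equal) and 20 moved. Some of the 36 could not move, since a change of promoter definition alone leaves listed peaks and their median fold as they were. By this rule a fall from 3 promoter genes to 2 also counted as kept. The 1% false discovery rate changed most. It left 4 of the 7 genes with a listed peak (Hnf4a, Cebpa, Onecut1 and Prox1), 5 of 11 peaks with a median fold of 5.52, 1 promoter peak at 1 gene (Cebpa, 7.29), and promoter peaks at 2 genes of the other liver factors. A score of at least 100 left 7 peaks with a median fold of 5.52, a promoter median of 7.285 and promoter peaks at 2 other liver factors. Peaks of at least the median fold, 4.93, left 4 genes and 4 peaks, with medians of 7.285 over all and over promoter peaks. With promoters of 500 bp Foxa3 dropped out, the promoter median was 5.5, and 3 other liver factors remained. With only the closest gene Foxa3 also dropped out, with medians of 4.385 over all peaks and 5.5 at promoters. Promoters of 5000 bp kept 3 genes because peaks past a gene's end were barred. With such peaks placed by RefSeq gene length, a setting chosen after seeing the data, Cebpb was added, giving 4 genes and a promoter median of 6.015. Cebpa had its promoter peak under all 8 alternatives, and Hnf4a at least 1 peak. Strength ranks depend on the caller, and depth is unknown, so an unlisted peak sets no limit on binding.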
